A study of Homo sapiens with 4 samples.

Results

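Bromodomains are protein modules that bind acetylated lysine, chiefly on histone tails, and the genes described here encode proteins that read this mark. The histone acetyltransferases p300 and CBP write much of it at enhancers and promoters. BRD2 and BRD3 are BET proteins, which connect acetylated chromatin to the transcription machinery. BRD1 and BRPF1 are scaffolds of acetyltransferase complexes, BRD7 and BRD9 belong to SWI/SNF chromatin remodellers, and BRD8 belongs to the NuA4/TIP60 complex. ATAD2 and ATAD2B are paralogues that join an AAA+ ATPase to a bromodomain. ATAD2 is known as an E2F target and a coactivator that is raised in many tumours.

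The 9 genes BRD2, BRD3, BRD1, BRD7, BRD8, BRD9, BRPF1, ATAD2 and ATAD2B were taken by name from the 17144 genes that had a row of their own in the value table. They held 14 rows, each a gene-level probe set that carried only that symbol, and no row listed a member beside another gene. BRD7 had 4 rows, BRD8 and ATAD2B had 2 each, and the other 6 genes had 1. The row with the highest mean over the 4 arrays stood for its gene. All 9 genes, and all 14 rows, passed the filter on low values (a mean of at least 3.96 on the log2 scale, the 40th percentile of all 27631 rows).

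The study measured how WM35, a line of radial growth phase melanoma cells, responds when the activity of p300 is blocked. The 4 groups were C646 (20 µM) for 6 h, DMSO (0.2%) for 6 h, C646 for 24 h and DMSO for 24 h, and each was measured on 1 Affymetrix exon array. C646 is a small molecule that inhibits the acetyltransferase activity of p300 and CBP. All values below are log2 expression values as deposited by the authors, and every difference is C646 minus DMSO of the same time unless another is named. With 1 array in each group, a difference at a single time carries neither an error from replicates nor a p-value.

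Array medians lay between 4.39 and 4.41, and the pairwise correlations over all rows were between 0.975 and 0.996, lowest for the C646 array of 24 h. Of 8 melanocyte markers 6 had a row and all 6 passed the filter, with levels from 6.06 (TYRP1) to 11.0 (PMEL). Of the markers with a row, 3 of 4 keratinocyte, 3 of 5 fibroblast, 4 of 4 leukocyte and 5 of 6 endothelial genes lay below the filter.

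ATAD2 was the member that stood apart, and it did so at 24 h. Its level was 7.57 with C646 and 7.82 with DMSO at 6 h, and 5.44 with C646 and 7.79 with DMSO at 24 h. The 24 h C646 array was low and the other 3 arrays lay within 0.24 of each other. The difference was -0.24 at 6 h and -2.35 at 24 h. The difference at 24 h was a 5.10-fold lower level. Of all 16579 rows kept, 73 (0.440%) had a lower value at 24 h. ATAD2 was 1 of 9 members at least 2-fold lower at 24 h, where 2.5% of all rows kept were, and no member was at least 2-fold higher, where 1.14% of rows were. No member reached 2-fold at 6 h, where 0.241% of rows did.

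**Figure D1:**
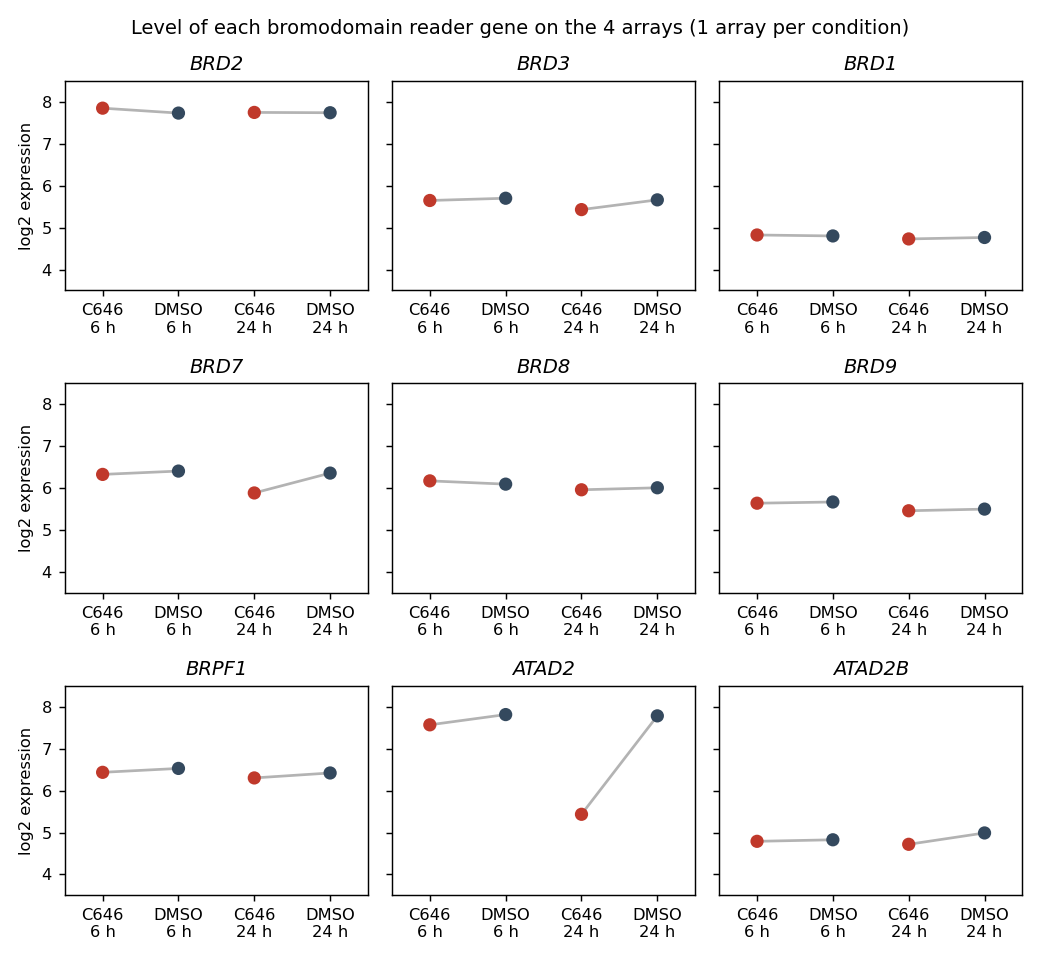
Log2 expression (vertical axis) of the 9 genes on the 4 arrays (horizontal axis), with C646 arrays in red and DMSO arrays in dark blue and a grey line joining the arrays of 1 time. ATAD2 drops to 5.44 on the C646 array of 24 h against 7.79 on the DMSO array, while each of the other genes spans at most 0.52 over its 4 arrays.

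A limma fit, a linear model with moderated variances, compared C646 at 24 h with the 2 DMSO arrays together across all 16579 rows. There 2 of 9 members fell at a Benjamini-Hochberg adjusted p under 0.05, where 6.9% of rows fell, and 0 rose, where 6.68% of rows rose. ATAD2 fell by 2.37 ± 0.091 (SE, limma adjusted p = 0.0029), with a range of 0.00038 to 0.010 over the other settings. BRD7 fell by 0.50 ± 0.089 (limma adjusted p = 0.036), a call that ended without the filter on low values, where ATAD2 alone was called, and that the other rows of the gene described below do not share. The fit has 1 residual degree of freedom. Its spread comes from the DMSO pair, includes drift of the vehicle and is moderated by that of all rows.

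With both times in a single limma fit and time as a term, 0 of 9 members passed, as did 0% of all rows. The estimate for ATAD2 was -1.30 ± 0.54 (SE, limma adjusted p = 0.45, unadjusted 0.073). An unadjusted limma p under 0.05 was met by 0 members and 1828 rows. The error of this fit comes from the disagreement between the effects at 6 h and 24 h, which for ATAD2 was -2.11. That error is moderated by the spread over all rows. Without the C646 array of 6 h the comparison becomes that of the previous paragraph, in which ATAD2 and BRD7 pass.

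Levels of cell division genes moved with ATAD2. Of 27 DNA replication and S phase genes kept, 27 were below 0 at 24 h and 23 were at least 2-fold lower, with a median of -1.79. Of 18 genes of G2 and mitosis, 18 were at least 2-fold lower, with a median of -2.47. Of all rows kept, 45.0% were below 0 at 24 h and 2.5% were at least 2-fold lower. The mean level of the replication genes was 5.08 with C646 and 6.96 with DMSO at 24 h, and that of the mitotic genes 5.57 with C646 and 7.94 with DMSO. At 6 h the medians of these lists were -0.081 and -0.51, and between the DMSO arrays -0.14 and -0.29. Their part in the value of ATAD2 was not tested. In RNA from whole cultures, fewer cells in a given phase and less RNA per cell cannot be told apart.

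Of 4 factors known to act with ATAD2 or on its gene, 3 were below 0 at 24 h, where 45.0% of rows kept were. E2F1, an activator of S phase genes, was at -1.57 and E2F2 at -1.01 at 24 h, and E2F3 at -0.48. The E2F2 level with C646 at 24 h, 3.71, lay below the filter, so that the size of its difference is not exact. MYC, whose protein works with ATAD2, was at 0.42 at 24 h. At 6 h E2F1 was at -0.0094, E2F2 at 0.22 and MYC at 0.37.

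ATAD2B read 4.79 with C646 and 4.83 with DMSO at 6 h, and 4.72 with C646 and 4.99 with DMSO at 24 h. The lowest array was again C646 at 24 h, but the DMSO array of 24 h was the highest, and the 4 arrays spanned 0.27. The difference was -0.037 at 6 h and -0.27 at 24 h, beside 0.16 between the DMSO arrays. In limma against both DMSO arrays ATAD2B was at -0.19 ± 0.11 (SE, limma adjusted p = 0.29). The other ATAD2B row read 4.03 with C646 and 4.22 with DMSO at 6 h, and 4.13 with C646 and 4.15 with DMSO at 24 h. It thus differed by -0.19 at 6 h and by -0.023 at 24 h, the opposite order of sizes to the first row.

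Set against its paralogue, ATAD2 was lower by a difference of effects of -0.21 at 6 h and -2.08 at 24 h. The same quantity between the DMSO arrays was -0.19, close to the value at 6 h. Over the other settings it ran from -0.18 to -0.11 at 6 h for those that changed it, and from -2.20 to -2.07 at 24 h. This difference of effects was not tested. The levels of the genes themselves were not compared, since they come from different probes.

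The genes most like ATAD2 were sought among 10630 other named genes, by the Euclidean distance between profiles centred on their own mean over the 4 arrays. The nearest were BLM, a helicase of recombination, at 0.081, WDR76 at 0.086, the DNA glycosylase gene NEIL3 at 0.099, the kinesin gene KIF18A at 0.13, the mitotic kinase gene PBK at 0.13 and the replication gene CDC45 at 0.14. Their differences at 24 h ran from -2.40 to -2.17, which follows from their choice by closeness to ATAD2. Within a distance of 0.25 there were 24 genes for ATAD2 and 3598 for ATAD2B. A short distance to ATAD2B was therefore common. Its nearest genes were RESF1, ARMCX1, SETBP1, CYP2W1, TCP1 and HCFC1, at 0.023 to 0.031, and the row of TCP1 is numbered among those of another chromosome.

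**Figure D2:**
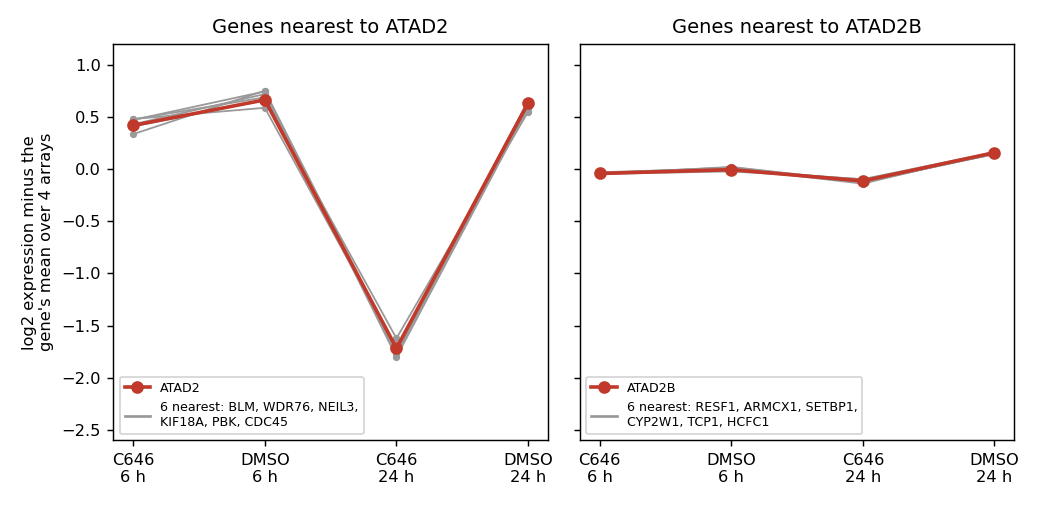
Log2 expression minus the gene's own mean over the 4 arrays (vertical axis) on each array (horizontal axis), for ATAD2 and ATAD2B in red and the 6 nearest genes of each in grey. The ATAD2 group drops mainly on the C646 array of 24 h. There its neighbours, chosen for closeness to ATAD2, differ by -2.40 to -2.17, after -0.42 to -0.11 at 6 h. The ATAD2B group stays nearly flat.

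The promoters of BRD7 and ATAD2B are shown because E2F genes moved with ATAD2 and each window holds a word searched for there. RefSeq windows (GRCh38.p14) of 250 bases before to 50 bases after a gene's start were read for 8 of the 9 genes, in 15 windows, and ATAD2 was not matched. The E2F words TTTCCCGC and TTTGGCGC, the CHR word TTTGAA and the CCAAT box were searched on both strands, and none of these words contains another. Capitals mark the E2F word in BRD7 (chr16:50368939-50369238, minus strand) and the CCAAT box in ATAD2B (chr2:23927074-23927373, minus strand).
BRD7: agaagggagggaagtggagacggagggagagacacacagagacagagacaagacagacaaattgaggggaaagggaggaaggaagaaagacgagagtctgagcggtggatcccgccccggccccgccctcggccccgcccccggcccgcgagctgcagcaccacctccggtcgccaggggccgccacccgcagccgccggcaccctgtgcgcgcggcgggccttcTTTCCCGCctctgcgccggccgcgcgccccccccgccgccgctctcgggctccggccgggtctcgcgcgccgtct
ATAD2B: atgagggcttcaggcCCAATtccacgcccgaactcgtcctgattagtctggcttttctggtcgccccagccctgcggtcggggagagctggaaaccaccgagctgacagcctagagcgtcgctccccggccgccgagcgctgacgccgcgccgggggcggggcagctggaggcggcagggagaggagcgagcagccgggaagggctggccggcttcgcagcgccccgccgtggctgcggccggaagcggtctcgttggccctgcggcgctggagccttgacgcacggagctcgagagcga

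The BRD7 word starts 25 bases before the start of the gene and the ATAD2B word 235 bases before it, and the 2 were the only matches in the 15 windows. Among all 27305 genes with a window, 2.75% held either E2F word, 18.2% the CHR word and 39.7% a CCAAT box. Of 25 DNA replication and S phase genes with a window, 15 held an E2F word, 1 the CHR word and 16 a CCAAT box. The BRD7 window lies on chromosome 16, while the row that stood for BRD7 is numbered among those of chromosome 3. A match is a string of letters and not a binding site. It names no cause of a difference.

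The BET genes differed little. BRD2 read 7.85 with C646 and 7.73 with DMSO at 6 h, and 7.75 with C646 and 7.74 with DMSO at 24 h. Its highest array was C646 at 6 h and the other 3 lay between 7.73 and 7.75. The differences were 0.12 at 6 h and 0.0072 at 24 h.

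BRD3 read 5.65 with C646 and 5.70 with DMSO at 6 h, and 5.43 with C646 and 5.66 with DMSO at 24 h. The C646 array of 24 h was the lowest, and the other 3 lay within 0.054 of each other. The differences were -0.054 and -0.23, beside -0.039 between the DMSO arrays. In limma against both DMSO arrays BRD3 was at -0.25 ± 0.086 (SE, limma adjusted p = 0.13), which did not pass. BRD2 minus BRD3 was 0.17 at 6 h and 0.24 at 24 h as a difference of effects, which was not tested, and 0.047 between the DMSO arrays.

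Proteins of the P-TEFb kinase and its 7SK inhibitor particle work beside BET proteins in the release of paused RNA polymerase II. For the 6 such genes kept the median was 0.15 at 24 h. MEPCE, the capping enzyme of 7SK RNA, was lowest at -0.59 at 24 h, and at -0.52 against both DMSO arrays. HEXIM1, an inhibitor of P-TEFb, was the highest at 0.40, and read 9.30 with C646 and 8.90 with DMSO at 24 h. Against both DMSO arrays HEXIM1 was at 0.49.

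The scaffolds BRD1 and BRPF1 differed by at most 0.12. BRD1 read 4.82 with C646 and 4.80 with DMSO at 6 h, and 4.73 with C646 and 4.77 with DMSO at 24 h, so that all 4 arrays lay within 0.095. BRPF1 read 6.44 with C646 and 6.53 with DMSO at 6 h, and 6.30 with C646 and 6.42 with DMSO at 24 h. Its differences of -0.093 and -0.12 were about as large as the -0.11 between the DMSO arrays.

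Of their partners in the MOZ, MORF and HBO1 complexes 6 genes were kept, with a median of -0.0034 at 24 h. The acetyltransferase gene KAT6A was lowest at -0.28 and ING4, a reader of methylated histone, highest at 0.31.

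The SWI/SNF member BRD9 read 5.64 with C646 and 5.67 with DMSO at 6 h, and 5.46 with C646 and 5.50 with DMSO at 24 h. Both arrays of 24 h were below both arrays of 6 h. The differences of -0.029 and -0.039 were smaller than the -0.17 between the DMSO arrays.

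The row that stood for BRD7, probe set 2650115, read 6.33 with C646 and 6.41 with DMSO at 6 h, and 5.89 with C646 and 6.36 with DMSO at 24 h. The C646 array of 24 h was low and the other 3 lay within 0.080. Its difference was -0.080 at 6 h and -0.47 at 24 h. On these arrays probe sets are numbered along the chromosomes, and this row is numbered among those of chromosome 3, while BRD7 lies on chromosome 16. RefSeq lists 7 pseudogenes of BRD7, among them 2 on chromosome 3, 2 on chromosome 6 and 1 on chromosome 13. Values of near-identical copies cannot be assigned to BRD7 with certainty.

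The BRD7 row numbered on chromosome 16, probe set 3691071, read 5.93 with C646 and 6.18 with DMSO at 6 h, and 5.92 with C646 and 6.12 with DMSO at 24 h. Both C646 arrays lay below both DMSO arrays. Its differences were -0.25 at 6 h and -0.20 at 24 h, beside -0.066 between the DMSO arrays. In limma against both DMSO arrays it was at -0.23 ± 0.091 (SE, limma adjusted p = 0.16), which did not pass. The rows numbered on chromosomes 13 and 6 were at -0.23 and 0.066 at 6 h, and at -0.22 and -0.056 at 24 h. The larger 24 h value of BRD7 was thus seen in 1 of its 4 rows.

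**Figure D3:**
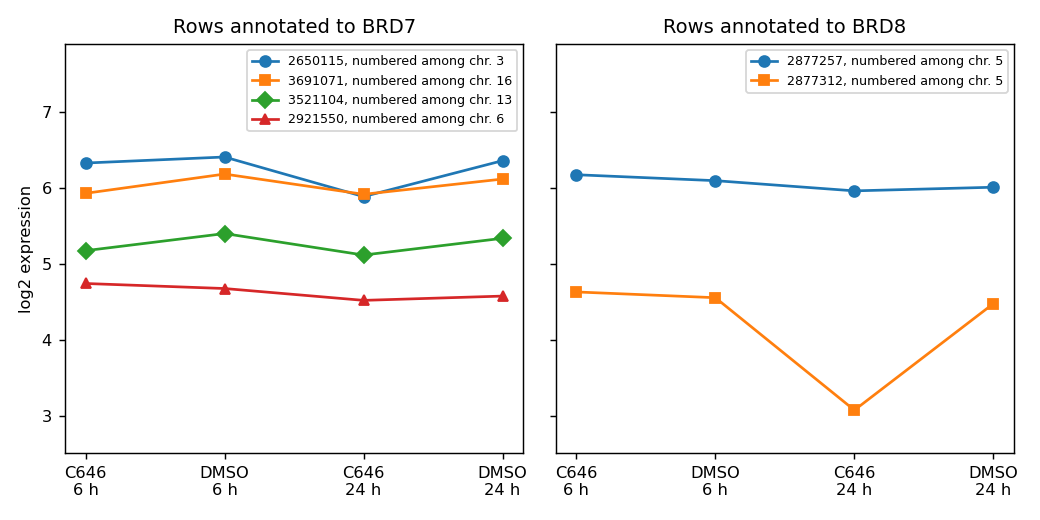
Log2 expression (vertical axis) on the 4 arrays (horizontal axis) of the 4 rows annotated to BRD7 and the 2 rows annotated to BRD8, with the chromosome among whose probe sets each row is numbered. The BRD7 row of chromosome 3 drops to 5.89 with C646 at 24 h against 6.36 with DMSO, and BRD8 row 2877312 drops to 3.07 against 4.48.

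Among the BAF, PBAF and ncBAF partners of BRD7 and BRD9, 19 genes were kept. The median was -0.030 at 6 h and -0.16 at 24 h, with 14 of 19 genes below 0. Over all 10707 genes kept, 4803 were below 0 at 24 h and the median was 0.030. DPF1, a subunit of neuronal BAF, was lowest at -0.49 with a level near the filter, and DPF2 was highest at 0.18.

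BRD8, by the row that stood for it (probe set 2877257), read 6.18 with C646 and 6.10 with DMSO at 6 h, and 5.96 with C646 and 6.01 with DMSO at 24 h. Both arrays of 6 h were above both arrays of 24 h. The differences were 0.078 and -0.048, beside -0.087 between the DMSO arrays.

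The other row annotated to BRD8, probe set 2877312, gave a different picture. It read 4.63 with C646 and 4.55 with DMSO at 6 h, and 3.07 with C646 and 4.48 with DMSO at 24 h. The C646 array of 24 h was far below the rest, which lay within 0.15 of each other. Its difference was 0.076 at 6 h and -1.41 at 24 h. In limma against both DMSO arrays it fell (limma adjusted p = 0.0040). The level of 3.07 lies below the filter of 3.96, so that the size of the difference is not exact. The row is numbered between the BRD8 row and that of CDC23. In RefSeq the mitotic kinesin gene KIF20A lies between these genes, 481 bases from BRD8. No row carried KIF20A as its only symbol, so KIF20A had no row to set beside this one. Which transcript the row measures was not tested. The CDC23 row differed by -0.34 at 24 h.

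Among the NuA4/TIP60 partners of BRD8, 15 genes were kept, with a median of 0.013 at 24 h. MBTD1, a reader of methylated histone, was highest at 0.47, and at 0.44 against both DMSO arrays. YEATS4, a reader of acetylated histone, was lowest at -0.43, and at -0.53 against both DMSO arrays.

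**Figure D4:**
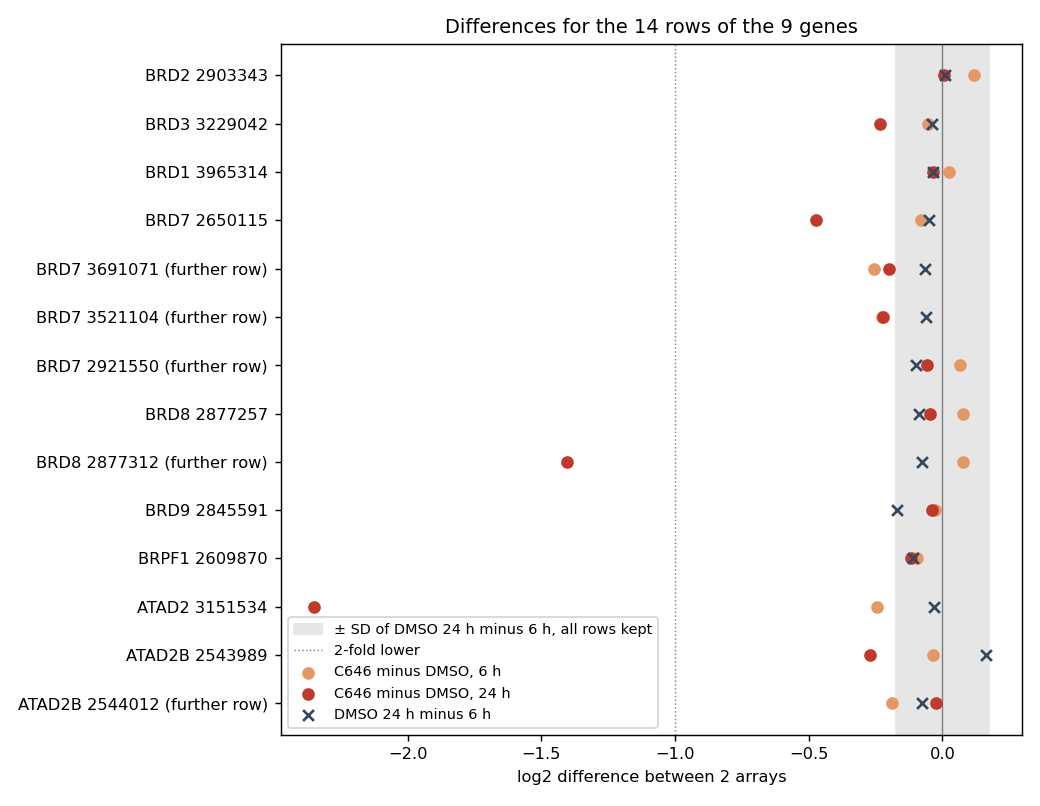
Log2 differences (horizontal axis) for the 14 rows of the 9 genes (vertical axis, with probe set numbers): C646 minus DMSO at 6 h in orange and at 24 h in red, and DMSO at 24 h minus 6 h as crosses. The grey band is the SD of DMSO at 24 h minus 6 h over all rows kept, 0.17 on either side of 0, and the 2 rows past the dotted 2-fold line are ATAD2 at -2.35 and BRD8 row 2877312 at -1.41.

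Over the 9 genes the median difference was -0.037 at 6 h and -0.12 at 24 h, against -0.0024 and 0.030 over all rows kept. At 24 h 8 of 9 members were below 0, where 45.0% of rows kept were, and at 6 h 6 of 9, where 50.6% were. Between the DMSO arrays 7 of 9 were below 0, with a median of -0.039 and a range of -0.17 to 0.16. At 24 h 5 of 9 differences were smaller than 0.17, the SD of the difference between the DMSO arrays over all rows kept, and at 6 h 8 of 9 were. The 8 members other than ATAD2 ran from -0.47 to 0.0072 at 24 h, and without ATAD2 the median was -0.083.

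Of 33 other genes with a bromodomain, 24 were kept, and at 24 h they ran from -1.09 to 0.50. Their median was -0.039 at 6 h and -0.15 at 24 h, with 14 of 24 below 0 at 24 h, where 45.0% of rows kept were. At least 2-fold lower at 24 h was 1 of 24, where 2.5% of rows kept were. This was BAZ1A, a subunit of ISWI remodellers, at -1.09, after -0.47 at 6 h. BAZ1B, its relative, was at -0.71 and PHIP at -0.61. TRIM66 was highest at 0.50, with 4.76 with C646 and 4.26 with DMSO at 24 h. The 3 YEATS-domain readers kept, which bind acylated lysine through another fold, had a median of -0.029, with MLLT3 highest at 0.27.

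**Figure D5:**
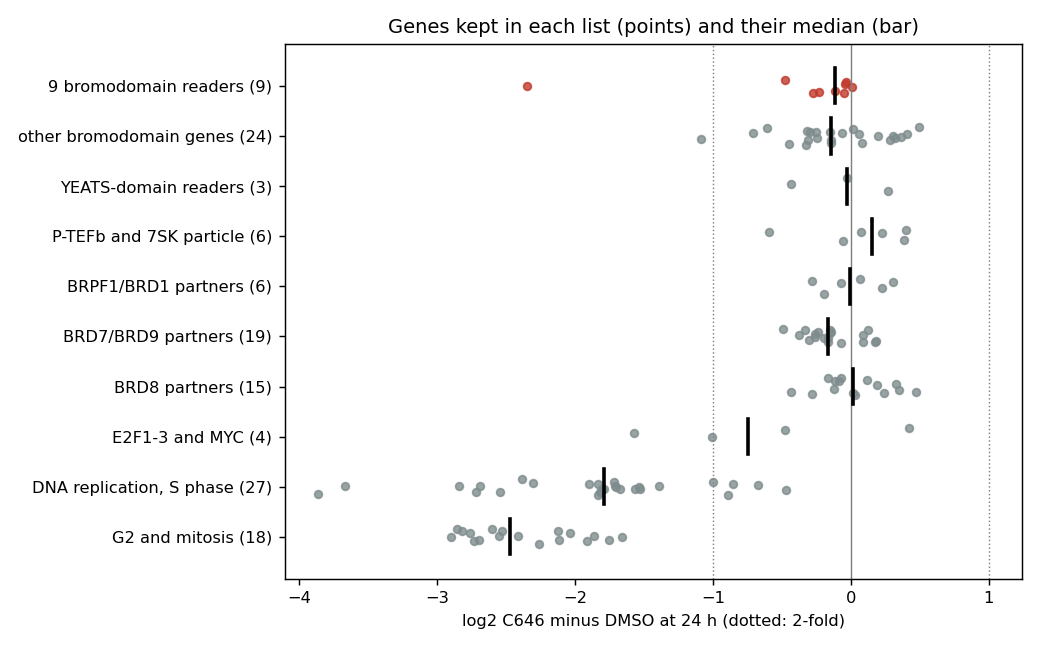
Log2 C646 minus DMSO at 24 h (horizontal axis) for the genes kept in each list (vertical axis, number of genes in brackets), with the median as a black bar and the 9 genes in red. ATAD2 at -2.35 lies among the replication and mitosis genes, whose medians are -1.79 and -2.47, and the other 8 members lie between -0.47 and 0.0072.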

How the data were processed

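RNA of 4 WM35 samples was measured on 4 exon arrays, 1 for each treatment and time. The authors' deposited table holds log2 values of 27631 gene-level probe sets, read as log2 from their range of 2.48 to 13.6. Their close medians show a shared scale. The normalization method is not given in the labels used here. Build hg19 is per the submitters' processing notes. Rows were named from the platform annotation through Entrez identifiers (20362 of 20429 rows with 1 symbol matched). Rows with a mean at or above the 40th percentile were kept (16579). Tests were limma 3.58.1 in R 4.3.3 (lmFit, eBayes with a mean-variance trend, two-sided, Benjamini-Hochberg over all rows kept), tried first on simulated data. There the planted changes were the same at both times, so the trial does not cover effects that differ between times. A row's chromosome by number is the majority among the 10 nearest placed rows on either side. It differs from that of the gene in 7.33% of placed rows. In the lists these were, besides BRD7, the rows of KAT7, SMARCE1, ARID1B, MORF4L1, ZMYND11, FEN1, UHRF1 and PCNA, which were left in. The members, lists and alternatives were chosen with earlier results of these data known. Of each list, genes at least 2-fold different at 24 h (up to 6) and its highest and lowest were to be named, which was not done for the replication, mitosis and marker lists. BAZ1B, PHIP, E2F3, CDC23 and BRD3OS were named after their values were seen. The number of arrays limits the precision.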

Additional observations from a re-analysis of the deposited data

Results flagged for a closer look

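For BRD1 and BRD8 the C646 array lay above the DMSO array at 6 h and below it at 24 h. The differences were 0.023 and -0.035 for BRD1, and 0.078 and -0.048 for BRD8. The change of direction was not tested, and all 4 values are smaller than the SD of the difference between the DMSO arrays over all rows kept (0.17).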

How the results depend on the processing

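The fit over both times sets C646 against DMSO within each time, and no replicate numbers pair the arrays further. A value counted as moved when it changed by over 0.17, the SD of the difference between the DMSO arrays over all rows kept. The member medians stayed within this with the mean of a gene's rows, with quantile normalization and against both DMSO arrays. So did they with own-chromosome rows, with centred arrays and without ATAD2, a setting chosen after seeing the data. As 0.17 is larger than both member medians, it checks them weakly. The difference of ATAD2 and ATAD2B stayed within it too, but centred arrays and own-chromosome rows could not change that difference. At 6 h it went from -0.21 to -0.11 against both DMSO arrays, which still counted as within 0.17. Of 90 single-gene values 86 stayed within 0.17, though many of them could not leave it. The mean of rows cannot change the 6 genes with 1 row, and own-chromosome rows changed BRD7 alone. Centring shifts all genes alike. At 6 h 8 of 9 main values were themselves smaller than 0.17. BRD7 at 24 h was at -0.24 with the mean of its rows and -0.20 with its own-chromosome row, which gave -0.25 at 6 h. BRD8 at 24 h was at -0.73 with the mean of its rows, which takes in row 2877312. Against both DMSO arrays, limma called 2 members, and 1 (ATAD2) without the filter on low values. With the mean of a gene's rows the 2 were ATAD2 and BRD8. Over both times limma called 0 members, and leaving out an array (with the time term dropped) gave 0 to 2, the 2 being those called without the C646 array of 6 h. Levels near the filter, as for ATAD2B and BRD8 row 2877312, limit the differences that can be seen.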

Other observations

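BRD3OS, whose gene overlaps that of BRD3 by 1283 bases in RefSeq, was at 0.41 at 24 h, where BRD3 was at -0.23. BRD3OS was named after its value was seen. Its row read 4.85 with C646 and 4.84 with DMSO at 6 h, and 5.30 with C646 and 4.89 with DMSO at 24 h. The C646 array of 24 h was above the other 3, which lay close together. Against both DMSO arrays BRD3OS was at 0.43 and BRD3 at -0.25, which did not pass in limma. The difference between these genes was not tested.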
